A study of Bos taurus with 4 samples.

Results

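Transporters of the solute carrier (SLC) class carry glucose, lactate and amino acids across the membranes of granulosa cells, and their transcripts are described here for 10 SLC families in pooled cells of cows rated as good or poor donors of oocytes. The members are all probes whose gene symbol in the platform annotation starts with SLC1A, SLC2A, SLC3A, SLC5A, SLC6A, SLC7A, SLC16A, SLC36A, SLC38A or SLC43A followed by a number. This rule took 108 of 43794 probes and 87 of 15216 genes with a symbol. It also takes SLC7A6OS, a neighbour of SLC7A6 that is named after it and is not itself a transporter, which leaves 86 transporter genes. Of the 87 genes, 73 had 1 probe, 7 had 2 and 7 had 3.

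The cells came from 94 Holstein cows of a commercial embryo production facility, all of them stimulated and then coasted, which means that gonadotrophin was withheld before the follicles were aspirated. Good donors gave mostly competent oocytes and poor donors mostly incompetent ones, and no allele, agent or age separates the groups in the labels, which call the sample type in vitro. Each of 4 two-colour arrays set a pool of good donors against a pool of poor donors: arrays 1 and 2 carried good pools 1 and 2 in Cy5 against poor pools 5 and 6 in Cy3, and arrays 3 and 4 carried poor pools 7 and 8 in Cy5 against good pools 3 and 4 in Cy3. The labels do not give the number of cows in a pool, so p-values measure the spread between pools, of which there were few. With dye orientation as a term in the fit, this is the spread within each array pair (arrays 1 and 2, and arrays 3 and 4). The difference between the pairs is left out of it. In pooled bulk RNA, fewer cells of a type and less RNA per cell cannot be told apart.

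Glucose enters cells down its gradient through SLC2 carriers, while SLC5 carriers couple sugars, inositol or vitamins to sodium. Some SLC16 carriers, among them SLC16A1 and SLC16A3, move lactate and pyruvate together with protons. Amino acids enter through sodium-coupled carriers of the SLC1, SLC6 and SLC38 families, through exchangers that pair an SLC7 light chain with an SLC3 heavy chain, and through SLC36 and SLC43 carriers. Granulosa and cumulus cells are known for active glycolysis, and they pass pyruvate, lactate and amino acids on to the oocyte.

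The granulosa label was checked against its markers. All 11 granulosa markers passed the detection filter, 10 of them were above background in all 8 pools, and FOXL2 was above it in 7 pools. Markers of other cells were also measured. All 6 stroma markers lay far above the negative controls, and their summed log2 level was 51.9 to 61.3 in the good-donor pools and 56.5 to 63.2 in the poor-donor pools. The 5 epithelial markers that passed the filter summed to 46.2 to 58.2 and 51.6 to 54.9, the 6 leukocyte markers to 41.9 to 44.3 and 41.2 to 45.8, and the 4 theca markers to 30.5 to 31.4 and 30.7 to 31.2, in the good and poor pools respectively. The theca marker CYP17A1 lay 0.27 log2 units over the control mean. The 3 red cell markers that passed summed to 20.7 to 23.6 and 21.6 to 23.8, the 3 endothelial ones to 19.3 to 20.8 and 19.8 to 20.7, and the 2 oocyte ones to 13.25 to 13.36 and 13.05 to 13.29. Between 64.3% and 72.7% of all probes were above background in a pool.

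The first question was which transporters these cells express. A probe counted as above background in a pool where its raw signal was over 2 SD higher than the mean of the 153 negative controls in the same dye. By this measure 50 member probes were above background in all 8 pools, 18 in none and 40 in some. By gene, with the brightest probe that passed the detection filter standing for each (or the brightest of all where none passed), 43 were above it in all 8 pools, 14 in none and 30 in some. The term far above the controls is used where a gene was above background in all 8 pools and its raw intensity, averaged over pools on the log2 scale, was at least 2 units over the control mean. This held for 19 genes (18 transporters), or 21.8% of the members, against 33.4% of all genes with a symbol. SLC5A6 at 2.01 lay just inside this threshold, and SLC2A8 at 1.36 lay clearly below it.

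**Figure D1:**
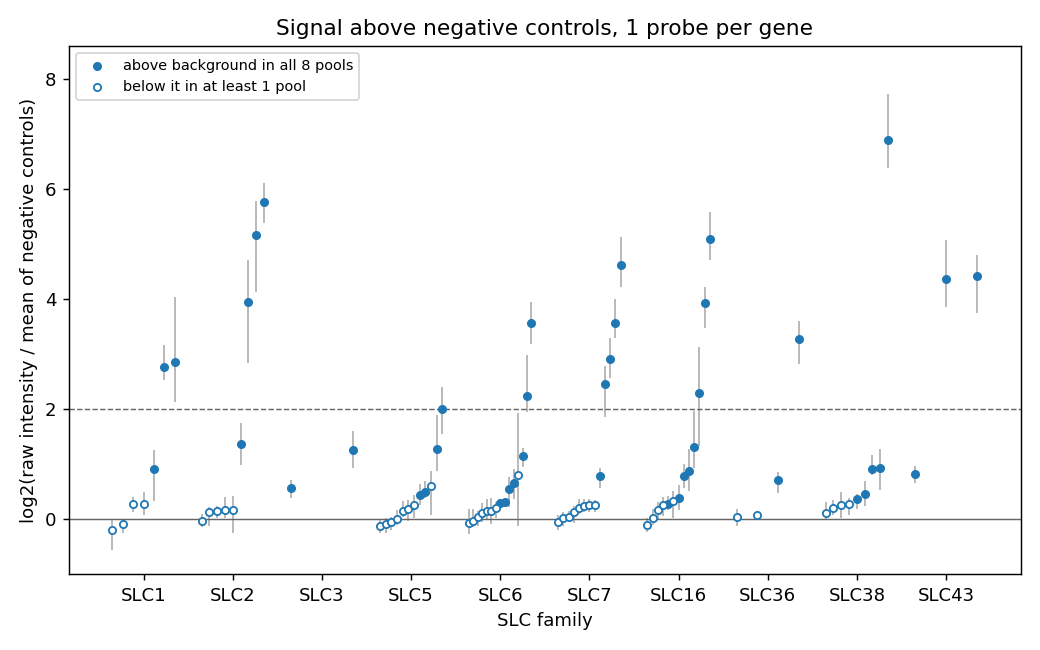
Raw signal of each member gene over the negative controls (log2 of intensity over the control mean, vertical axis) by SLC family (horizontal axis), 1 probe a gene; points are means over 8 pools, lines run from the lowest to the highest pool, and the dashed line marks 2 log2 units. In 9 of the families at least 1 gene lies above the dashed line, SLC3 being the exception.

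The genes far above the controls came from 9 of the 10 families. They were SLC38A2 at 6.89 log2 units over the control mean, SLC2A3 at 5.77, SLC2A6 at 5.16, SLC16A3 at 5.09, SLC7A5 at 4.63, SLC43A3 at 4.42, SLC43A2 at 4.37, SLC2A1 at 3.94 and SLC16A1 at 3.93. The remainder ran from 2.01 to 3.57 and were SLC1A4, SLC1A5, SLC5A6, SLC6A4, SLC6A8, SLC7A6, SLC7A6OS, SLC7A7, SLC16A11 and SLC36A4. These distances depend on each probe and do not rank the genes by transcript amount. The 14 genes below background in every pool included SLC7A1 (a carrier of cationic amino acids), SLC7A8 (a light chain for neutral amino acids), SLC16A7 (a monocarboxylate carrier) and SLC5A1 (the intestinal glucose carrier), for which these probes give only an upper bound.

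The second question was whether the transporters differed between poor and good donors. No member probe passed an adjusted p of 0.05 in limma with dye orientation as a term (Benjamini-Hochberg over 26181 probes), where 0% of all tested probes did, and the smallest adjusted p among members was 0.822. The filter kept 61 member probes for 52 genes, that is probes detected in every good-donor pool or in every poor-donor pool. It kept 6 genes through the good-donor pools alone and 3 through the poor-donor pools alone. By probe these were 7 and 4 of the 61 members, beside 2158 and 1380 of all 26181 probes kept. Some lay close to the controls: SLC1A1 and SLC1A2, at 0.28 and 0.27 log2 units over the control mean, were above background in 4 good and 3 poor pools. The mean log2 ratio of poor over good was above 0 for 23 genes and below 0 for 29, with a median of -0.036 over the 52 genes and of 0.0008 over all 10976 genes tested. The median SD over the 4 arrays was 0.22 for members and 0.22 for all genes.

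At an unadjusted p under 0.05 there were 6 member probes, or 9.84%, against 5.96% of all tested probes. Of these, 2 were higher in poor donors (2.7% of all probes were) and 4 were lower (3.26% were). The higher ones were 1 probe each of SLC38A2 and SLC16A1, and the lower ones belonged to SLC43A2, SLC7A6, SLC1A4 and SLC16A5. SLC16A5 passed the filter only through the good-donor pools (above background in 4 good and 2 poor pools), the group where it is higher, so the filter bears on its place in this count. Without array 4 there were 3 member probes past this p, where 4.84% of all probes were. In the fit without the dye term there were also 3, where 4.37% of all probes were. Without array 2 there were 10, where the share of all probes was likewise larger, at 9.38%. In the separate-channel fit there were again 6, where 10.6% of all probes passed, so the members' share was then below that of all probes. With a difference of at least 1.5-fold added, 1 member probe remained, for SLC38A2, where 0.325% of all probes did (0.0497% as higher in poor donors). The ratio had the same sign on all 4 arrays for 7 member probes, or 11.5%, close to the 11.4% of all probes, with 4 higher (5.46%) and 3 lower (5.89%). SLC16A12, among the 4 higher, passed the filter only through the poor-donor pools (above background in 2 good and 4 poor pools), the group where it is higher. Levels of the good and poor pools did not overlap for 3 member probes (2.22% of all probes), of which 2 were higher in poor donors (1.11%) and 1 was lower (1.1%).

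**Figure D2:**
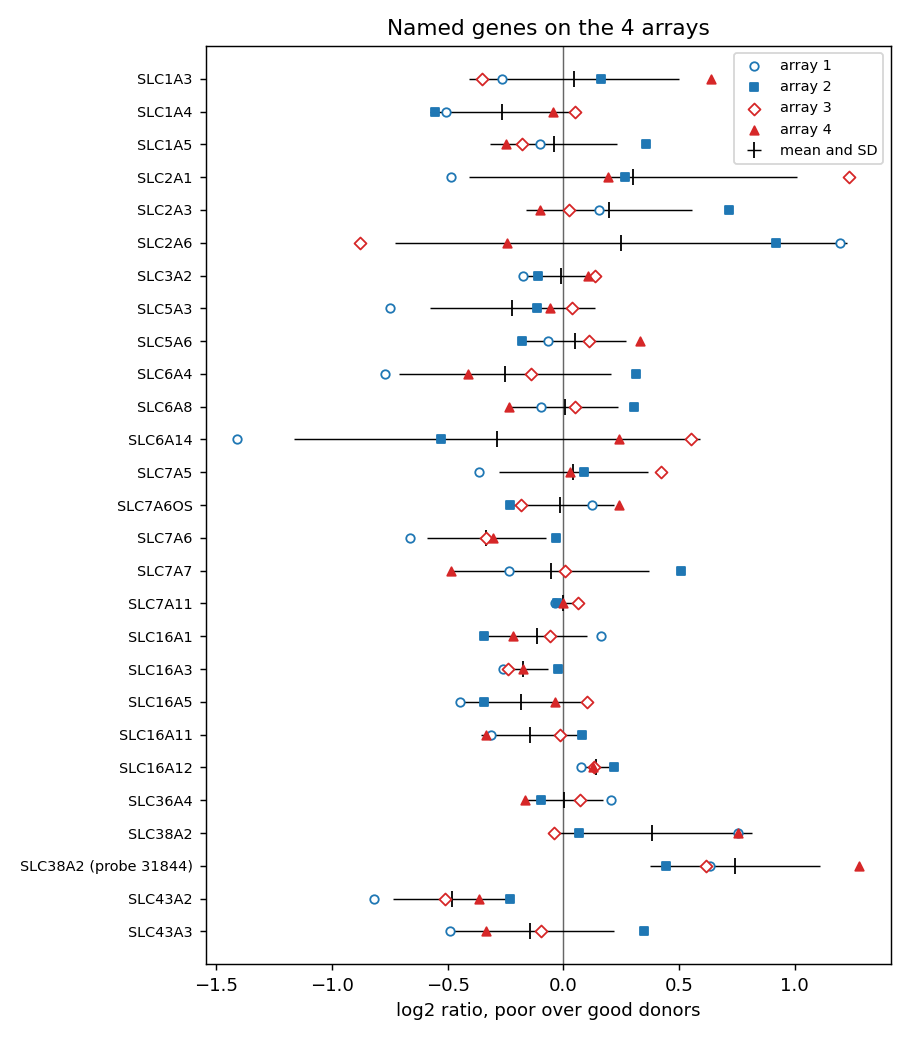
Log2 ratio of poor over good donors (horizontal axis) on each of the 4 arrays for the 26 named genes that were tested and the second SLC38A2 probe; black marks are the mean and SD over arrays. Open circles and filled squares are arrays 1 and 2, and open diamonds and filled triangles are arrays 3 and 4. Only the second SLC38A2 probe, SLC16A12, SLC16A3, SLC43A2 and SLC7A6 have all 4 arrays on 1 side of 0.

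Among the glucose carriers, 4 of the 9 SLC2 genes passed the filter, and all 4 were above background in all 8 pools. The SLC2 family had the median difference of largest size among the 10 families, 0.22, and the largest median SD over arrays, 0.53. SLC2A1 (GLUT1, the carrier for basal glucose uptake) had normalised log2 levels of 10.46, 9.89, 9.10 and 9.82 in good pools 1 to 4 and 9.97, 10.16, 10.34 and 10.01 in poor pools 5 to 8. Good pools 2, 3 and 4 lay below all 4 poor pools, pool 3 by the most, and good pool 1 lay above all of them. Its ratios on arrays 1 to 4 were -0.49, 0.27, 1.24 and 0.19, with a mean of 0.30 ± 0.71 (SD, n = 4), and its adjusted p in limma was 0.877. The fitted difference was 0.49, 0.11, 0.043 and 0.56 without arrays 1, 2, 3 and 4 in turn. With an array left out, here and below, the fit keeps the dye term. The fitted difference then averages the means of the array pairs and is not the mean of the remaining arrays. A second SLC2A1 probe gave 0.054 ± 0.20 (SD, n = 4). In good pool 3 the 5 epithelial markers also had their lowest mean level, 9.23, against 10.3 to 11.6 in the other pools, and the 6 stroma markers theirs, 8.65; their part in the SLC2A1 values was not tested.

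SLC2A6 (GLUT6, a carrier found on lysosomes) varied most among the members. Its levels were 9.91, 10.69, 11.86 and 11.78 in the good pools and 11.11, 11.61, 10.98 and 11.53 in the poor pools. Good pools 1 and 2 lay below all 4 poor pools, and good pools 3 and 4 lay above all of them. The ratios were accordingly positive on arrays 1 and 2 and negative on arrays 3 and 4, at 1.20, 0.92, -0.88 and -0.24, and the mean of 0.25 ± 0.98 (SD, n = 4) had an adjusted p of 0.832 in limma. With each array left out in turn the fitted difference ran from 0.090 (without array 4) to 0.41 (without array 3). Array pair and dye orientation coincide, so pool differences and dye cannot be told apart here. The dye term of no member passed an adjusted p of 0.05 in limma, and 0% of all probes did.

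SLC2A3 (GLUT3, a carrier of high glucose affinity) had levels of 11.82, 11.40, 11.68 and 11.90 in the good pools and 11.97, 12.12, 11.70 and 11.80 in the poor pools. The groups overlapped, and poor pool 6 was the highest. The mean ratio was 0.20 ± 0.36 (SD, n = 4), with array 2 at 0.72 and the other arrays between -0.10 and 0.15. The fitted difference was 0.057 without array 2 and 0.34 without array 1. SLC2A8, an intracellular hexose carrier, had a mean of -0.072 ± 0.23 (SD, n = 4). SLC2A4 (GLUT4, the insulin-responsive carrier) was above background in 2 good and 2 poor pools and was not tested.

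Of the 12 sodium-coupled SLC5 genes, 5 passed the filter and 4 were above background in all 8 pools. SLC5A6 (the sodium-dependent multivitamin carrier) had levels of 7.82 to 8.25 in good pools and 7.93 to 8.31 in poor pools, which overlapped, and a mean ratio of 0.049 ± 0.22 (SD, n = 4). SLC5A3 (a myo-inositol carrier) passed through the good-donor pools alone. Its ratios were -0.75, -0.11, 0.039 and -0.056, so that array 1 carried most of the mean of -0.22 ± 0.36 (SD, n = 4). With each array left out in turn the fitted difference ran from -0.38 (without array 2) to -0.061 (without array 1).

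The SLC16 family, which holds lactate and pyruvate carriers but also others such as SLC16A12, had the most genes detected. Of its 13 genes, 10 passed the filter and 8 were above background in all 8 pools. The median difference of the 10 genes was -0.11, with 7 below 0 and 3 above. SLC16A3 (MCT4, the lactate exporter of glycolytic cells) had levels of 11.33, 11.27, 10.99 and 11.22 in the good pools and 11.07, 11.25, 10.75 and 11.05 in the poor pools. The groups overlapped, with the lowest level in poor pool 7 and the next lowest in good pool 3, the pair on array 3. The ratio was below 0 on all 4 arrays, at -0.26, -0.021, -0.24 and -0.17, with a mean of -0.17 ± 0.11 (SD, n = 4; unadjusted p 0.072, adjusted p 0.83 in limma).

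SLC16A1 (MCT1, which carries lactate and pyruvate in either direction) had 3 probes that disagreed. The brightest had a mean ratio of -0.11 ± 0.22, the next -0.18 ± 0.27 and the dimmest 0.19 ± 0.14 (SD, n = 4 each). On the dimmest probe the ratios were 0.25, 0.35, 0.089 and 0.057, all above 0, with an unadjusted p of 0.036 and an adjusted p of 0.83 in limma. The pools of the 2 groups overlapped on all 3 probes, so SLC16A1 had no single direction. SLC16A5 passed through the good-donor pools alone and had ratios of -0.45, -0.34, 0.10 and -0.035, with a mean of -0.18 ± 0.26 (SD, n = 4) and an unadjusted p of 0.049 (adjusted p 0.83 in limma). SLC16A12 (a creatine carrier in human and mouse) passed through the poor-donor pools alone and had a mean of 0.14 ± 0.059 (SD, n = 4). SLC16A11 had levels of 7.59 in good pool 3 and 7.58 in poor pool 7, the pair on array 3, and of 8.35 to 8.96 in the other pools; its mean ratio was -0.15 ± 0.21 (SD, n = 4). The low pair thus shared an array and not a donor group. SLC16A11 and SLC16A13 are neighbouring genes in the ARS-UCD2.0 annotation, and SLC16A13 had a mean of -0.094 ± 0.34 (SD, n = 4).

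**Figure D3:**
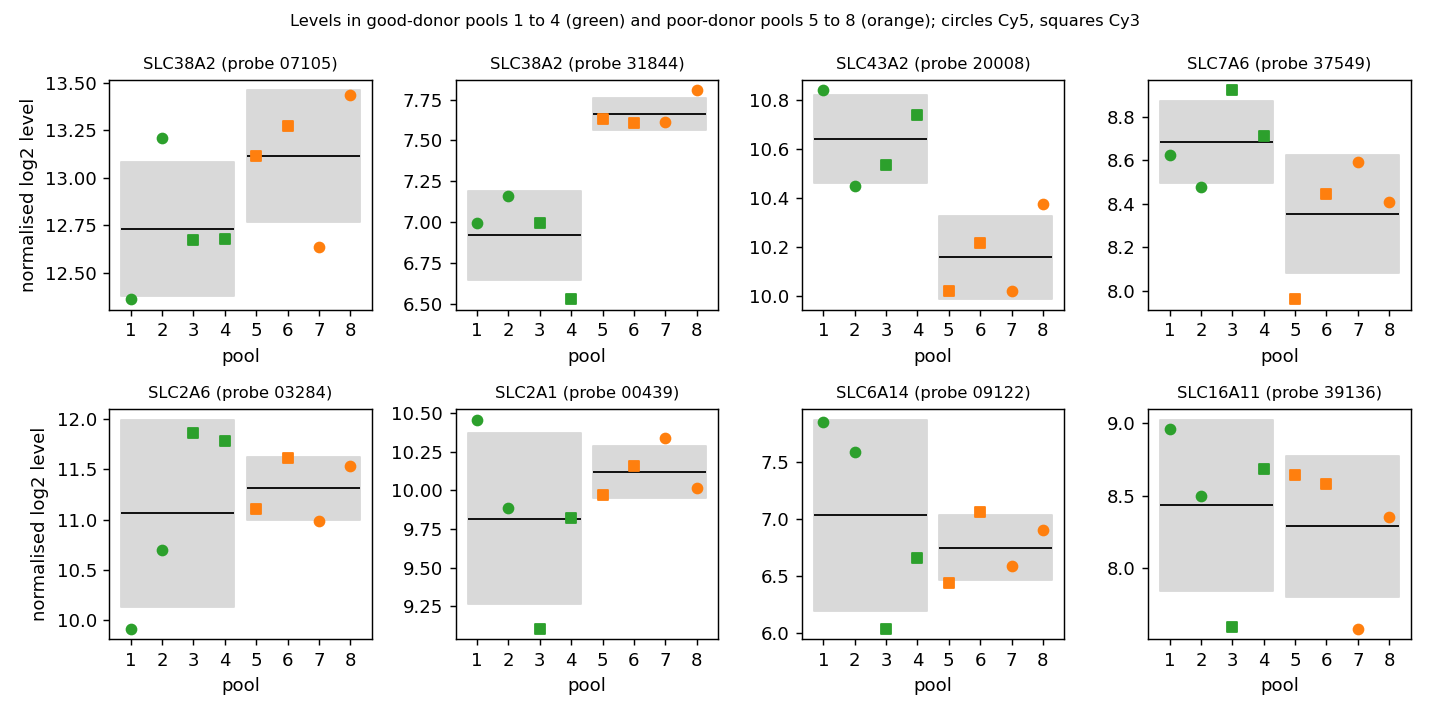
Normalised log2 levels (vertical axis, a scale of its own in each panel that does not start at 0) of 8 probes in good-donor pools 1 to 4 and poor-donor pools 5 to 8; lines and boxes are the group mean and SD, circles are Cy5 and squares Cy3. The groups separate for the second SLC38A2 probe and SLC43A2, good pools 3 and 4 lie above good pools 1 and 2 for SLC2A6, and pools 3 and 7 are low for SLC16A11.

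For small neutral amino acids the SLC38 carrier SLC38A2 (SNAT2, a sodium-coupled carrier of glutamine and alanine known to be induced when amino acids are scarce) had 3 tested probes. The brightest, which lay 6.89 log2 units over the controls, had levels of 12.36, 13.21, 12.67 and 12.68 in the good pools and 13.12, 13.27, 12.63 and 13.43 in the poor pools. Poor pools 5, 6 and 8 were high together with good pool 2, and poor pool 7 was just below good pools 3 and 4. Its ratios were 0.76, 0.067, -0.040 and 0.76, with a mean of 0.38 ± 0.43 (SD, n = 4), a 95% interval of -0.11 to 0.88 and an adjusted p of 0.83 in limma. The fitted difference was 0.21, 0.56, 0.58 and 0.19 without arrays 1, 2, 3 and 4 in turn.

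The second SLC38A2 probe, at 1.19 log2 units over the controls, had levels of 6.996, 7.16, 6.99 and 6.53 in the good pools and 7.63, 7.60, 7.61 and 7.81 in the poor pools. All 4 poor pools lay above all 4 good pools. The ratios were 0.63, 0.45, 0.62 and 1.28, with a mean of 0.74 ± 0.37 (SD, n = 4), a 95% interval of 0.40 to 1.09, an unadjusted p of 0.0032 and an adjusted p of 0.822 in limma. This was the only member probe past the unadjusted p with 1.5-fold. It was not past it without array 4 (fitted difference 0.58), nor with mean in place of median spot intensity (fitted difference 0.40). The third and dimmest probe had a mean of 0.036 ± 0.22 (SD, n = 4), so the probes differed in size from near 0 to above 0.5. Which part of the transcript each probe matches was not used here. The stroma markers, all 6 of them with a mean ratio above 0 and a median of 0.42, lay in the same direction without passing the adjusted threshold. LUM at 1.85 ± 1.25, the largest of all 10976 genes tested, and COL1A1 at 0.46 ± 0.27 (SD, n = 4 each) were above 0 on all 4 arrays. These 2 of 6 were higher at an unadjusted p under 0.05 in limma, where 2.7% of all probes were. On arrays 1 to 4 the 6 stroma markers averaged -0.24, 1.08, 1.47 and 0.11, in a different order from either SLC38A2 probe. Their part in the SLC38A2 values was not tested.

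SLC38A1 (SNAT1), the neighbour of SLC38A2 in the ARS-UCD2.0 annotation and a carrier of glutamine, was above background in 3 good and 3 poor pools and was not tested. The other tested SLC38 genes had means between -0.092 ± 0.42 for SLC38A5 and 0.066 ± 0.21 for SLC38A6 (SD, n = 4).

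The carriers SLC43A1 and SLC43A2 take up leucine and other large neutral amino acids without sodium or a heavy chain. SLC43A2 (LAT4 in the older naming) had levels of 10.84, 10.45, 10.53 and 10.74 in the good pools and 10.02, 10.21, 10.02 and 10.37 in the poor pools. All 4 poor pools lay below all 4 good pools, by the least between poor pool 8 and good pool 2. Its ratios were -0.82, -0.23, -0.51 and -0.36, with a mean of -0.48 ± 0.25 (SD, n = 4), a 95% interval of -0.80 to -0.17, an unadjusted p of 0.012 and an adjusted p of 0.822 in limma. It fell short of 1.5-fold in the fit over all arrays and passed the looser threshold without array 2, at -0.63. The granulosa markers had a mean ratio below 0 for 9 of 11 genes and above 0 for 2, with a median of -0.076. INHA stood at -0.60 ± 1.32 and NR5A2 at -0.25 ± 0.028 (SD, n = 4 each). These 2 of 11 were lower at an unadjusted p under 0.05 in limma, where 3.26% of all probes were. INHA was below 0 on arrays 1 and 2 only. NR5A2 and GATA4, the latter at -0.22 ± 0.15 (SD, n = 4), were below 0 on all 4 arrays. None passed the adjusted threshold, and the markers' part in the SLC43A2 values was not tested.

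SLC43A3 (a carrier of purine bases in human) had levels of 10.39, 9.86, 10.90 and 10.90 in the good pools and 9.91, 10.21, 10.81 and 10.57 in the poor pools. Pools 3, 4, 7 and 8, those of arrays 3 and 4, lay above pools 1, 2, 5 and 6, so the split ran between array pairs and not between donor groups. The mean ratio was -0.14 ± 0.36 (SD, n = 4), and the fitted difference was 0.066 without array 1 and -0.35 without array 2. SLC43A1 (LAT3) had a mean of 0.026 ± 0.093 (SD, n = 4).

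Among the SLC1 carriers, SLC1A4 (ASCT1, which exchanges alanine, serine and cysteine) had levels of 9.83, 8.94, 8.40 and 9.01 in the good pools and 9.32, 8.39, 8.45 and 8.96 in the poor pools. Good pool 1 was the highest and the groups overlapped. The ratios were -0.51, -0.55, 0.052 and -0.045, so the difference lay on arrays 1 and 2; the mean was -0.26 ± 0.31 (SD, n = 4) with an unadjusted p of 0.011 and an adjusted p of 0.822 in limma. This p rests on the spread within each array pair, which was small, and not on the larger difference between the pairs. A second SLC1A4 probe had a similar mean with a wider spread, -0.26 ± 0.48 (SD, n = 4). SLC1A5 (ASCT2, a glutamine exchanger) had levels of 8.64 to 8.99 in good pools and 8.63 to 9.001 in poor pools and a mean of -0.042 ± 0.27 (SD, n = 4). SLC1A3, a glutamate carrier near background, had ratios from -0.35 on array 3 to 0.64 on array 4 and a mean of 0.046 ± 0.45 (SD, n = 4).

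Among the heterodimeric exchangers, SLC3A2 (the heavy chain 4F2hc) had levels of 7.17 to 7.56 in the good pools and 7.29 to 7.45 in the poor pools and a mean ratio of -0.0098 ± 0.16 (SD, n = 4). Its partner SLC7A5 (LAT1, which imports leucine in exchange for glutamine) had levels of 10.90, 10.52, 10.49 and 10.64 in the good pools and 10.53, 10.61, 10.92 and 10.67 in the poor pools. Good pool 1 and poor pool 7 were high and the groups overlapped. The mean ratio was 0.044 ± 0.32 (SD, n = 4), with a 95% interval of -0.27 to 0.36. SLC7A11 (xCT, which imports cystine for glutathione in exchange for glutamate) had a mean of 0.0013 ± 0.045 (SD, n = 4) with a 95% interval of -0.16 to 0.17. Its probe lay only 0.79 log2 units over the control mean, near background, which limits what this small spread can show.

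SLC7A6 (y+LAT2, an exchanger of cationic for neutral amino acids) had levels of 8.62, 8.48, 8.92 and 8.71 in the good pools and 7.96, 8.44, 8.59 and 8.41 in the poor pools. Poor pool 5 was the lowest, and poor pool 7 lay above good pool 2, so the groups overlapped. The ratios were below 0 on all 4 arrays, at -0.66, -0.033, -0.33 and -0.30, with a mean of -0.33 ± 0.26 (SD, n = 4), an unadjusted p of 0.045 and an adjusted p of 0.83 in limma. The fitted difference was -0.18 without array 1 and -0.49 without array 2, and a second, dimmer probe gave a mean of 0.014 ± 0.076 (SD, n = 4). SLC7A7 (y+LAT1) had a mean of -0.051 ± 0.42 (SD, n = 4), with poor pools 6 and 8 at 9.49 and 8.46 and the other pools between 8.80 and 9.03. SLC7A6OS had a mean of -0.012 ± 0.23 (SD, n = 4).

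In the SLC6 family 8 of 15 genes passed the filter. SLC6A14, a carrier of neutral and cationic amino acids known from epithelia, had levels of 7.85, 7.58, 6.03 and 6.66 in the good pools and 6.43, 7.06, 6.59 and 6.90 in the poor pools. Good pools 1 and 2 were above all poor pools, and good pool 3 was below all of them and below background. Its ratios were -1.41, -0.53, 0.55 and 0.24, with a mean of -0.29 ± 0.88 (SD, n = 4) and an adjusted p of 0.844 in limma. With each array left out in turn the fitted difference, which averages the array pairs, ran from -0.51 (without array 2) to -0.064 (without array 1). A second SLC6A14 probe had the same signs on the 4 arrays, at -0.81, -0.49, 0.53 and 0.23. The 5 epithelial markers had mean levels of 11.64, 11.19, 9.23 and 10.56 in good pools 1 to 4 and of 10.32, 10.98, 10.98 and 10.87 in poor pools 5 to 8. Pools 1 and 2 were thus the highest and pool 3 the lowest in the mean of these markers as in SLC6A14. Single markers differed: KRT7 had this order, whereas KRT18 was highest in poor pool 7, at 12.79, and KRT19 lowest there, at 12.67. The markers' part in the SLC6A14 values was not tested.

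SLC6A8 (the creatine carrier) had levels of 9.47 to 9.74 in good pools and 9.25 to 9.9998 in poor pools and a mean ratio of 0.0072 ± 0.23 (SD, n = 4). SLC6A4 (the serotonin carrier) had ratios of -0.77, 0.32, -0.14 and -0.41 and a mean of -0.25 ± 0.46 (SD, n = 4), with array 2 opposite to the others. SLC6A13 (a carrier of GABA and taurine) was the third probe without overlap, with levels of 6.34 to 6.48 in the good pools and 6.48 to 6.52 in the poor pools; these lie near the median level of 6.12 of probes below background in all pools, and its mean ratio was 0.060 ± 0.065 (SD, n = 4). SLC6A13 is named for this pattern, after its values were seen. Of the SLC36 carriers, SLC36A4 (a carrier of proline and tryptophan in human) had a mean of 0.0040 ± 0.17 (SD, n = 4).

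The array pairs opposed each other for 17 of the 61 member probes, against 22.9% of all probes: 8 were higher in poor donors on arrays 1 and 2 and lower on arrays 3 and 4 (11.9% of all probes), and 9 ran the other way (11%). A range over the 8 pools of at least 1 log2 unit was found for 11 member probes, or 18.03%, against 7.56% of all probes. Those 11 were 2 probes each of SLC1A4, SLC38A2 and SLC6A14 and 1 each of SLC2A1, SLC2A6, SLC7A7, SLC16A11 and SLC43A3. The median pool range of the members was 0.48 and that of all genes 0.51.

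**Figure D4:**
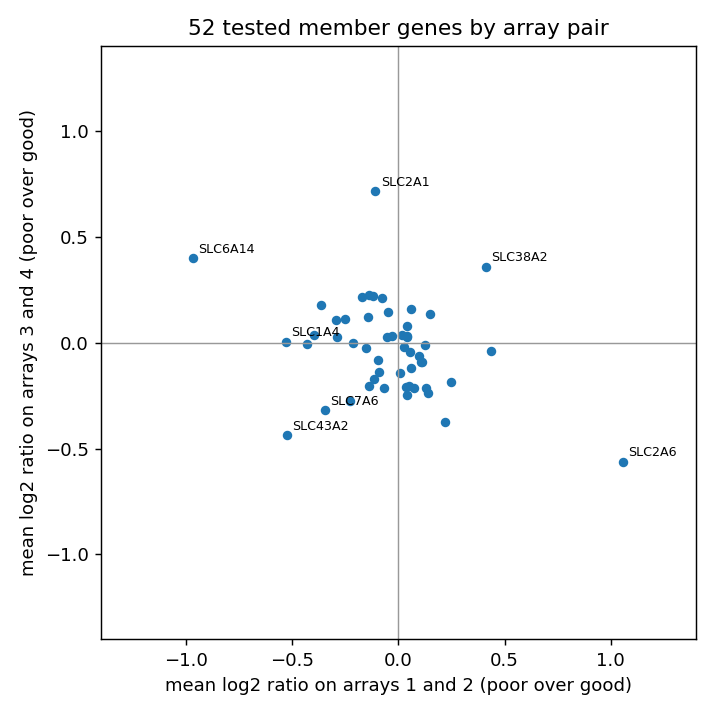
Mean log2 ratio of poor over good donors on arrays 1 and 2 (horizontal axis) against that on arrays 3 and 4 (vertical axis) for the 52 tested genes, 1 point a gene. SLC2A6 and SLC6A14 lie in the quadrants where the pairs oppose each other, SLC38A2 in the upper right and SLC43A2 and SLC7A6 in the lower left.

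Genes that work with the transporters were examined as lists, and none of their probes passed the adjusted threshold. Over all 10976 genes tested 5525 had a mean ratio above 0, and 2.7% of all tested probes were past an unadjusted p of 0.05 as higher in poor donors. Of the partners and regulators, 10 genes passed the filter, 5 above 0 and 5 below, with a median of 0.0052. TXNIP and ARRDC4, relatives that restrain glucose uptake, had mean ratios of -0.35 ± 0.53 and 0.44 ± 0.44 (SD, n = 4 each), opposite in sign. BSG (basigin, the chaperone of SLC16A1 and SLC16A3) had ratios of -0.25, -0.55, 0.39 and 0.15, opposite between the array pairs, and SGK1 (a kinase that raises the surface level of several carriers) had -1.48, 1.18, 3.50 and -0.77, the highest on array 3; both were singled out after their values were seen.

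The enzymes of glucose and lactate metabolism had 15 of 20 genes above 0 and a median of 0.10, with ENO1 at 0.29 ± 0.19 and TPI1 at 0.32 ± 0.29 (SD, n = 4 each) past an unadjusted p of 0.05, that is 2 of the 20. The amino acid response driven by ATF4, a factor that induces SLC38A2, SLC7A5 and SLC7A11, had 8 of 12 genes above 0 and a median of 0.050. ATF4 itself stood at 0.33 ± 0.21 and PSPH, an enzyme of serine synthesis, at 0.26 ± 0.13 (SD, n = 4 each), both above 0 on all 4 arrays with unadjusted p of 0.015 and 0.017 and an adjusted p of 0.822 in limma. Glutamine, glutamate and proline metabolism had 2 of 8 genes above 0 and a median of -0.13, with ALDH18A1, an enzyme of proline synthesis, at -0.14 ± 0.10 (SD, n = 4) and none past an unadjusted p of 0.05. Breakdown of branched-chain amino acids had 4 of 6 genes above 0 and a median of 0.059, with DBT at 0.22 ± 0.35 (SD, n = 4). Lysosomal mTORC1 sensing, which reads amino acid supply, had 8 of 11 genes above 0 and a median of 0.092, and LAMTOR3, a subunit of its scaffold, at 0.20 ± 0.13 (SD, n = 4), was past an unadjusted p of 0.05.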

How the data were processed

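RNA of the pools was amplified linearly over 2 rounds and coupled to Cy3 or Cy5, per the labels' protocols. The deposited scanner tables give spot and local background intensity for 45212 spots an array, unnormalized per the file headers; 22 rows without a probe ID were left out. The authors' deposited log2 ratio per probe, normalized in a way no source used here states, served as an alternative. It ran as poor over good and correlated at 0.971 to 0.980 with the ratios below.

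Median intensities were corrected with normexp (offset 50) and loess (span 0.3, control spots at weight 0) in limma 3.58.1 (R 4.3.3). Levels per pool were scaled further with Aquantile. Of 43794 probes, 26181 were detected in every pool of 1 donor group or of both and were tested together in limma with a probe-specific dye term (2 residual and 2.51 prior degrees of freedom) and Benjamini-Hochberg adjustment. The dye term takes up differences between arrays 1 and 2 and arrays 3 and 4. Levels of a probe compare pools, and no level compares 2 probes. The functions were tested on simulated data.

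Symbols came from the platform annotation, and all 87 were current in ARS-UCD2.0. The named genes were those far above the controls, the 10 of smallest p, any with 1 sign on all arrays and a mean of at least 0.5, the 5 of widest SD and 11 in all cases, which gave 28, and up to 3 of smallest p from each other list. Members and lists were chosen with earlier results of these data known. Coordinates and sequences are not given, because no source used here names the build of the probes.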

Additional observations from a re-analysis of the deposited data

Results flagged for a closer look

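The sets of values examined numbered 87 and held ratios over the arrays as well as levels in the pools of a donor group. A single value stood apart from the other 3 in 5 of the 87, where chance gives about 1 in 20. All 5 were sets of pools, so their share among the sets of pools alone is larger than 5 of 87. SLC38A2 (second probe) was at 7.81 in poor pool 8, above 7.60 to 7.63 in the other poor pools. SLC16A1 (brightest probe) was at 9.67 in poor pool 6, below 9.98 to 9.99. SLC36A4 was at 8.99 in the same pool, below 9.39 to 9.44. SLC16A12 was at 6.39 in poor pool 5, below 6.54 to 6.57. SLC7A11 was at 6.76 in good pool 3, below 6.97 to 7.01.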

How the results depend on the processing

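No member probe passed the adjusted threshold under any setting, and the smallest adjusted p over all probes was 0.173, in the separate-channel fit, where the estimate of the correlation within spots did not converge for some probes. The count of member probes past the unadjusted p with 1.5-fold was 1 in the main analysis and 0 with mean spot intensity, and 0 to 2 when each array was left out in turn (0 without array 4, 2 without array 2, which added SLC43A2). Over all probes that count was 13 higher and 72 lower in the main analysis, 5 and 27 with mean spot intensity, 30 and 98 with the deposited ratios, 31 and 97 with plain background subtraction, and 51 and 85, 82 and 210, and 211 and 120 without array 1, 2 and 4. The median over member genes was -0.0055 with mean spot intensity, and -0.056 to -0.026 with each array left out. The sign of named genes turned for SLC36A4 (-0.015) and SLC6A8 (-0.014) with median centring, and for SLC3A2 (0.031), SLC7A6OS (0.092) and SLC7A7 (0.049) with mean spot intensity; the cause was not tested.

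With each array left out in turn, the sign of the fitted difference also turned for SLC16A1 (-0.24 to 0.012), SLC1A3 (-0.20 to 0.29), SLC1A5 (-0.16 to 0.074), SLC36A4 (-0.072 to 0.080), SLC3A2 (-0.027 to 0.0071), SLC43A3 (-0.35 to 0.066), SLC5A6 (-0.0060 to 0.10), SLC6A4 (-0.52 to 0.020), SLC6A8 (-0.094 to 0.11), SLC7A11 (-0.015 to 0.017), SLC7A5 (-0.070 to 0.16), SLC7A6OS (-0.12 to 0.093) and SLC7A7 (-0.24 to 0.13). SLC38A2, SLC43A2, SLC7A6, SLC16A3, SLC1A4, SLC2A1, SLC2A3 and SLC2A6 kept the direction of their fitted difference under every setting run. By the brightest probe, only SLC43A2, SLC7A6 and SLC16A3 among these had the same sign on every array. For SLC2A6 the array pairs had opposite signs, and the fitted difference averages them. Each array is 1 pool pair, so leaving one out leaves 3 pools a donor group. Genes close to the negative controls, such as SLC16A5, SLC16A12, SLC5A3 and SLC7A11, are limited by signal over background. The fit on ratios already pairs the 2 pools of an array, and no array number recurs to serve as a further block.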
